A study of Mus musculus with 10 samples.

Results

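Genes of the p53 pathway and of DNA repair were followed across 10 lines of B16OVA, a mouse melanoma line of C57BL/6 origin with ovalbumin (OVA) as its model antigen. The set holds 39 named genes, picked by pathway: Trp53 with its inhibitor Mdm4, 13 p53 targets and 24 repair genes. A gene was read from a transcript cluster, a group of probes for 1 transcript, that carried its symbol and no other, and the cluster with the highest mean stood for the gene. Of the 39, 36 were measured in this way, among 23360 genes in all. The other 3, Gadd45a, Ddb2 and Fanca, lay on clusters that also carried another gene's symbol, and they were not analysed here. All 36 measured genes, 2 of the core, 11 targets and 23 repair genes, passed the filter on dim genes that left 16352 genes for testing.

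RNA of each line was hybridised to 1 MoGene-2_0-st array. The 3 IMM lines (1, 2 and 8) came from tumours in B6 mice immunized with OVA, and the 3 GKO-IMM lines (1, 2 and 3) from tumours in OVA-immunized mice that lack interferon-γ. The 3 NIMM lines (1, 3 and 4) came from tumours in naive B6 mice, and the parent is the B16OVA culture itself. Per the study's design text, the IMM lines grew progressively when put back into OVA-immunized mice, unlike the NIMM and GKO-IMM lines. There was no line from naive interferon-γ-deficient mice, so in GKO-IMM against NIMM lines the immunization and the deficiency of the host cannot be told apart. IMM and GKO-IMM hosts were both immunized with OVA, but the labels do not give the genetic background of the deficient mice. Each line has 1 array, and nothing in the labels says how many mice or cells a line came from, so p-values measure the spread between these lines.

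p53 is a transcription factor that DNA damage and other stresses stabilise. It switches on genes that stop the cell cycle, repair DNA or start apoptosis, and also Mdm2, the ubiquitin ligase that marks p53 itself for degradation, so that the pathway limits its own output. The repair genes include the damage kinases Atm and Atr that activate p53, along with sensors, nucleases and ligases of several pathways, and many of them are transcribed mainly in dividing cells, under E2F factors, and not through p53.

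The promoters of a few members are shown for the words tied to each kind of control. RefSeq promoter windows on build GRCm38.p6, from 250 bases before to 50 bases after the annotated start, were matched for 29 of the 36 members. They were searched on both strands for the p53 half-site and for the E2F words TTTCCCGC, TTTCGCGC, TTTGCCGC and TTTGGCGC. The 3 windows printed first belong to p53 targets whose levels are described below, with each p53 half-site in capitals. Mdm2 lies on the minus strand at chr10:117710709-117711008, with the match beginning at base -186 from the start. Cdkn1a lies on the plus strand at chr17:29090729-29091028, the first of its 2 windows, with matches from -73 and -51. The other Cdkn1a window, at chr17:29093519-29093818, held 0 half-sites. Ccng1 lies on the minus strand at chr11:40755237-40755536, with the match from -185.
Mdm2: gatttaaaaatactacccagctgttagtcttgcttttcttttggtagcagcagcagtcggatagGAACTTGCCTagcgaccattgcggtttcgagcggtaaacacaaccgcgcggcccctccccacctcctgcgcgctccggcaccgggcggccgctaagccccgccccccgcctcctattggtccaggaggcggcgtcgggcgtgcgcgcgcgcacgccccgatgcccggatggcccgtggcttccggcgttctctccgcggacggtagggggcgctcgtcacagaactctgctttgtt
Cdkn1a: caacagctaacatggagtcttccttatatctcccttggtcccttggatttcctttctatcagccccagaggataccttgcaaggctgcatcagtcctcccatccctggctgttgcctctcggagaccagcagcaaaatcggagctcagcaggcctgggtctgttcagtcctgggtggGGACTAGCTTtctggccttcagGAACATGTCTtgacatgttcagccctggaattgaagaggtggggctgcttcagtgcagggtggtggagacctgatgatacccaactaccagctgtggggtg
Ccng1: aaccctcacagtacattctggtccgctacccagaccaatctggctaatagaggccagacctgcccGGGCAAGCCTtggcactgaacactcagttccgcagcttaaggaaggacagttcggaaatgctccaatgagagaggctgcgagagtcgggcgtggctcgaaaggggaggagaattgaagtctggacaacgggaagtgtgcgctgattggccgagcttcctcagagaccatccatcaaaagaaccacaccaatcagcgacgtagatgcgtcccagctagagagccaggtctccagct

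Chek2 and Msh6 stand for the repair genes, with an E2F word in capitals. Chek2 lies on the plus strand at chr5:110839733-110840032, where the word is read on the other strand from -152. Msh6 lies on the plus strand at chr17:87974800-87975099, with the word from +16.
Chek2: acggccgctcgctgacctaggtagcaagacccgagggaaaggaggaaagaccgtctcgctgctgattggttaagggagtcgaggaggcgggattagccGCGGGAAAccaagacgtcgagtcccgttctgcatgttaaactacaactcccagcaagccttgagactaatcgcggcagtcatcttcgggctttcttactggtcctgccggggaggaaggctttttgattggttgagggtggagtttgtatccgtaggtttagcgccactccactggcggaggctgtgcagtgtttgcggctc
Msh6: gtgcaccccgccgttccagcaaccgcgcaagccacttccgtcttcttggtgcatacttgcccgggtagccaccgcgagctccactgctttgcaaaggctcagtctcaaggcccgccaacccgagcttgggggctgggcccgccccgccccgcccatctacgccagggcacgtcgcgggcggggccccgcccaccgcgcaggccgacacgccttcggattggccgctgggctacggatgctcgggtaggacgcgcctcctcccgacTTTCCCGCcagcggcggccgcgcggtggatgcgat

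A p53 half-site was found in at least 1 window of 6 of the 9 p53 targets matched and of 0 of the 18 repair genes. These compare with 9.55% of all 27025 genes with windows. By window it was in 6 of the targets' 14, against 8.36% of all 32851 windows. The targets were Mdm2, Cdkn1a, Ccng1, Bax, Sesn1 and Polk, and Trp53 itself held one. An E2F word was found in 5 of the 18 repair genes (Chek2, Brca2, Lig1, Xrcc6 and Msh6) and in 0 of the 9 targets, against 2.60% of all genes. By window the word was in 5 of the repair genes' 21, against 2.26% of all windows. The CHR word TTTGAA, a cell cycle element, was found in 1 of 9 targets and 0 of 18 repair genes, against 20.2% of all genes, and CCAAT in 6 of 9 and 11 of 18, against 41.1%. A match describes the letters in these windows and is not evidence of a bound factor.

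Values below are log2 of the deposited intensity, so that a difference of 1 is a doubling, and they compare a gene with itself across lines. Array medians ran from 31.9 to 32.5 in intensity, and arrays correlated at 0.993 to 0.998 across transcript clusters. The melanoma label held: the 7 pigment cell markers (Pmel, Mlana, Tyr, Tyrp1, Dct, Sox10 and Mitf) were above the filter in every line, with summed intensities of 27138 to 29293 in IMM, 26946 to 27858 in GKO-IMM, 26867 to 28061 in NIMM and 27948 in the parent. Of 12 leukocyte markers 7 were under the filter, Ptprc, Cd3e, Cd8a and Cd4 among them, and the brightest, Cd68, averaged 69.3 in intensity. The summed leukocyte signal was 361 to 371 in IMM, 346 to 364 in GKO-IMM and 353 to 389 in NIMM lines. It was highest in the parent culture, at 446. Of 7 fibroblast markers Dcn and Lum were under the filter. The summed signal was 330 to 345 in IMM lines, above the 306 to 325 in GKO-IMM lines and the 256 in the parent. In NIMM lines it was 310 to 356, a range that enclosed the IMM lines. By limma 0 of the 5 tested fibroblast markers passed. In IMM minus GKO-IMM, 2 were at an unadjusted p under 0.05 (17.2% of all genes). Without overlap 3 were higher in IMM than in GKO-IMM lines (13.3% of all genes), with a median of 0.19 over the 5 markers. Their part in the members' values was not tested.

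One line stood apart from its group. On the first principal component, which held 40.6% of the variance, NIMM 4 scored 14.7, above the 3 GKO-IMM lines at 9.58 to 11.1, while NIMM 1, NIMM 3 and the IMM lines lay between -10.4 and -7.86. The counts of members that passed, and some single results, are given with and without NIMM 4. Other results that involve NIMM lines, or the spread shared by the groups, are given only with NIMM 4 included. That line was singled out by its own values in these data, so the fits without it are descriptions and not independent tests.

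Across the 9 established lines the members spread somewhat more widely than the typical gene. The gap between the highest and lowest line had a median of 0.41 over the 36 members, against 0.32 over all genes tested. It ran from 0.14 for Prkdc to 0.91 for Brca1. The members lay between percentile 52.4 (Bbc3) and 99.2 (Ccng1) of mean log2 intensity over all genes. The comparison of spread was not matched for brightness. The 9 lines were compared with limma, fitted across all genes with the Benjamini-Hochberg adjustment at 0.05, two-sided. By that test 0 of 36 members differed in any comparison: IMM against NIMM (0.428% of all genes passed), IMM against GKO-IMM (1.17%), GKO-IMM against NIMM (0.122%), IMM against the mean of the other groups (0.807%) or among the 3 groups at all (1.02%). At an unadjusted p under 0.05 the limma counts were 6, 8, 2, 11 and 7 members, in the same order. These compare with 14.1%, 17.2%, 13.9%, 16.4% and 18.4% of all genes.

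The zero counts come with narrow intervals. The median standard error of a difference between groups was 0.09, and the 95% interval of every member lay within 1 log2 unit of zero in each of the 4 contrasts. Within 0.5 units lay 33 members for IMM minus NIMM, 32 for IMM minus GKO-IMM, 33 for GKO-IMM minus NIMM and 34 for IMM minus the mean of the others. A doubling in intensity of any of the 36 genes between these groups was therefore outside the interval, and the shifts described below are small. Whether background was subtracted is not stated, and the lowest intensity on the arrays was 17.3. For dim members such as Bbc3 (37.4 in NIMM 1) the bound is on intensity and not on RNA. Without NIMM 4, 5 members passed in IMM against GKO-IMM lines (7.39% of all genes; 4 higher against 3.28%, 1 lower against 4.11%), 8 in GKO-IMM against NIMM lines (7.73%) and 7 in the test among the 3 groups (8.82%). By limma 0 passed in IMM against NIMM lines (0.465%) or against the mean of the other groups (1.86%) without that line. At an unadjusted p under 0.05 there were 9 and 10 of the 36, against 2295 and 2685 of the 16352 genes tested.

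**Figure D1:**
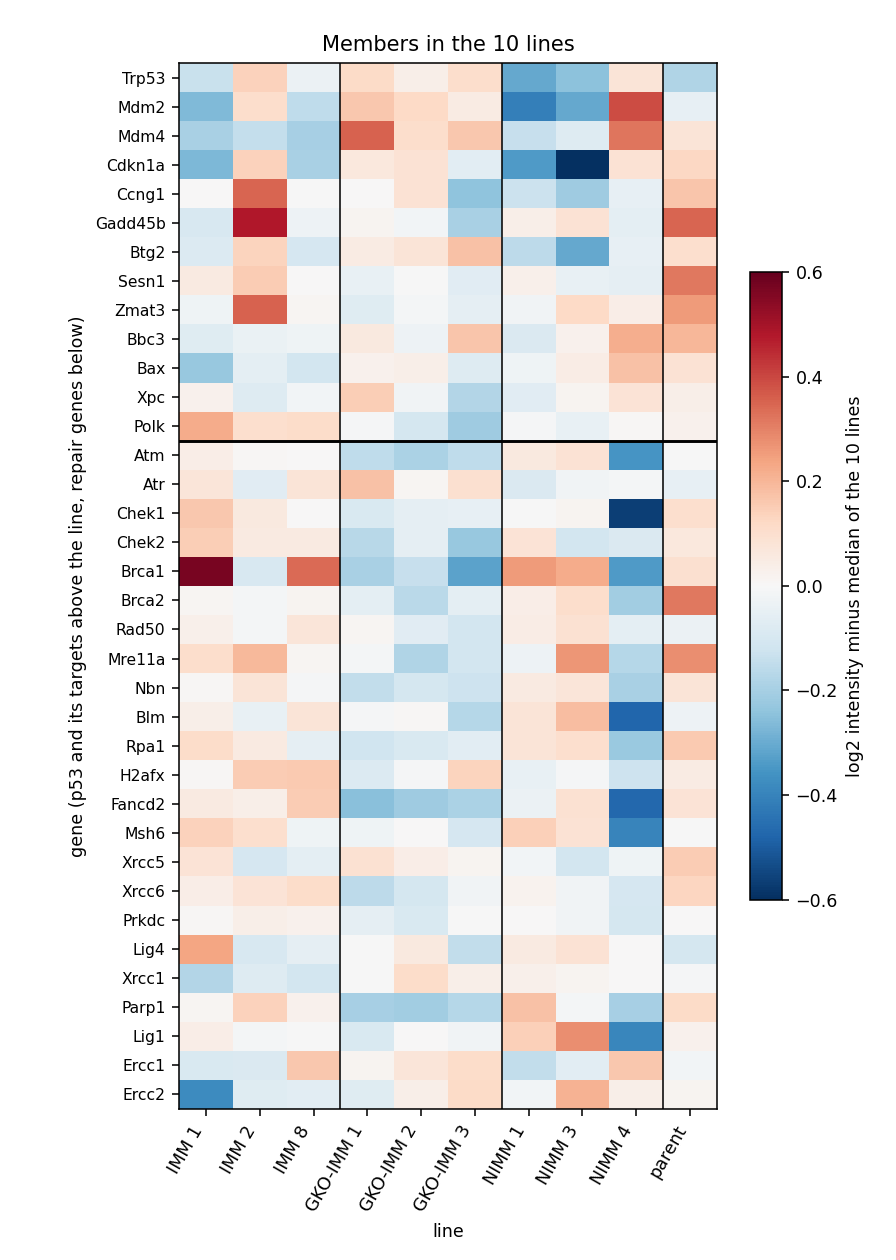
Each row is a gene and each column a line; colour is the log2 intensity minus the gene's median over the 10 lines, from blue (lower) to red (higher). p53 and its targets are above the thick line and repair genes below it; NIMM 4 is blue in most repair genes, and IMM 2 is red in Gadd45b, Ccng1 and Zmat3.

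The p53 core gave the clearest pattern by line. Trp53, which encodes p53, read 10.07, 10.34 and 10.17 in IMM 1, 2 and 8, 10.31, 10.24 and 10.31 in GKO-IMM 1, 2 and 3, 9.89, 9.96 and 10.28 in NIMM 1, 3 and 4, and 10.02 in the parent. NIMM 1 and NIMM 3 were the lowest lines, and NIMM 4 sat with the GKO-IMM lines. Mdm2 read 9.26, 9.63 and 9.37 in the IMM lines, 9.68, 9.64 and 9.57 in GKO-IMM, 9.11, 9.22 and 9.92 in NIMM, and 9.48 in the parent. Its highest line was NIMM 4 and its lowest NIMM 1, both of the same group. Mdm4, a relative of Mdm2 that binds p53 and blocks its activity, read 7.74, 7.79 and 7.73 in IMM, 8.29, 8.04 and 8.10 in GKO-IMM, 7.80, 7.85 and 8.26 in NIMM, and 8.01 in the parent. All 3 IMM lines lay below the other 6 established lines, though IMM 2 and NIMM 1 nearly met, and NIMM 4 again sat among the GKO-IMM lines.

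Cdkn1a, which encodes the cyclin-dependent kinase inhibitor p21, is the textbook arrest gene downstream of p53. It read 10.55, 10.96 and 10.63 in the IMM lines, 10.89, 10.91 and 10.76 in GKO-IMM, 10.48, 10.20 and 10.91 in NIMM, and 10.95 in the parent. NIMM 3 and NIMM 1 were the lowest lines, and IMM 2 the highest of the 9. Btg2, an antiproliferative p53 target, read 5.68, 5.89 and 5.66 in IMM, 5.81, 5.83 and 5.93 in GKO-IMM, 5.60, 5.45 and 5.71 in NIMM, and 5.86 in the parent. Here the GKO-IMM and NIMM lines did not overlap, and NIMM 4 was the highest of its group.

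In GKO-IMM against NIMM lines these genes were higher by 0.27 ± 0.08 for Btg2 (log2 difference ± SE; limma adjusted p = 0.204), 0.24 ± 0.10 for Trp53 (0.317), 0.32 ± 0.16 for Cdkn1a (0.384), 0.17 ± 0.11 for Mdm4 (0.514) and 0.22 ± 0.17 for Mdm2 (0.606). None passed. The within-group SD of Mdm2 was 0.06 in GKO-IMM lines and 0.44 in NIMM lines (n = 3 each), and that of Cdkn1a 0.08 in GKO-IMM and 0.36 in NIMM lines. Of the 8 members that passed without NIMM 4, the 5 that were then higher in GKO-IMM lines, against 4.23% of all genes in that direction, were Mdm2 (0.47 ± 0.10, limma adjusted p = 0.0166), Trp53 (0.36 ± 0.08, 0.0228), Cdkn1a (0.51 ± 0.12, 0.0268), Mdm4 (0.31 ± 0.08, 0.0341) and Btg2 (0.33 ± 0.09, 0.0375). The 5 are p53, its 2 inhibitors and 2 of its arrest targets. Over all 11 targets, Mdm2 included, 3 passed in that fit and the median difference was 0.01. With all 9 lines, 6 of the 11 targets were below zero. In each of the 5, NIMM 4 was the highest NIMM line. Leaving it out therefore widens these differences by construction, and the calls over all genes in this contrast went from 20 to 1264. The fold for Cdkn1a was then 1.42 and for Mdm2 1.38.

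**Figure D2:**
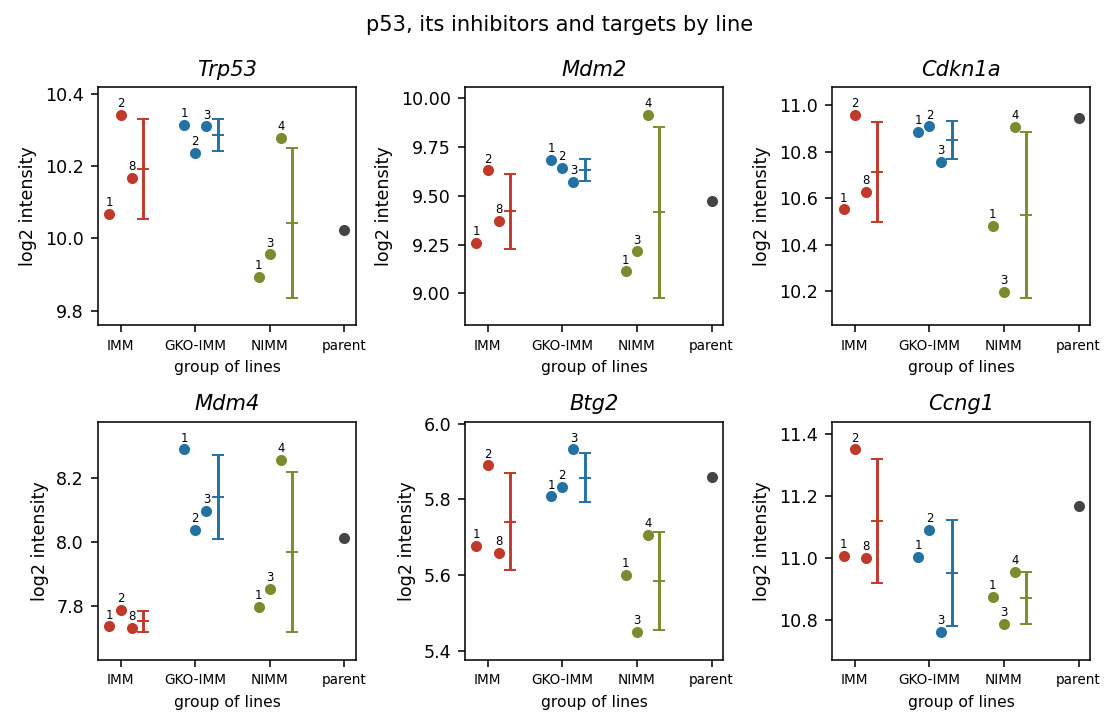
Log2 intensity of 6 genes in each line, by group; points are lines with their numbers, bars the group mean ± SD (3 lines each), and the parent is 1 array. In Trp53, Mdm2, Cdkn1a and Mdm4, NIMM 4 lies with the GKO-IMM lines and away from NIMM 1 and NIMM 3; in Ccng1, IMM 2 is above all others.

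Stress and cell cycle genes moved along the same split of lines. The median deviation of 18 genes of the unfolded protein and amino acid stress responses (Ddit3, Atf3, Trib3, Chac1, Asns and others) from their 10-line medians was 0.73 to 0.75 in the 3 GKO-IMM lines and 1.05 in NIMM 4. In the IMM lines, NIMM 1, NIMM 3 and the parent it was -0.41 to 0.04. With all 9 lines 0 of the 18 passed in GKO-IMM against NIMM lines by limma. At an unadjusted p under 0.05 there were 7, against 13.9% of all genes. Without NIMM 4, 16 rose, against 4.23% of all genes. The part of this difference in that of the p53 genes was not tested.

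Mdm4 was the core gene with the largest difference between immunized groups. It averaged 7.75 ± 0.03 in IMM and 8.14 ± 0.13 in GKO-IMM lines (SD, n = 3 each), a difference of -0.39 ± 0.11 with a limma adjusted p of 0.111. Against NIMM lines the difference was -0.22 ± 0.11 (0.402). NIMM 4 belongs to neither side of the first comparison, so leaving it out kept that difference and narrowed the shared spread: the standard error became 0.07 and Mdm4 was then lower in IMM lines at an adjusted p of 0.00672. Trp53 in IMM minus GKO-IMM lines was -0.09 ± 0.10 (0.694), Mdm2 -0.21 ± 0.17 (0.579) and Cdkn1a -0.14 ± 0.16 (0.714), with overlap between groups in each.

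Among the other arrest and growth targets, IMM 2 had the highest value of the 9 lines in Ccng1, Gadd45b, Zmat3 and Sesn1. Ccng1, which encodes cyclin G1, read 11.005, 11.35 and 10.998 in the IMM lines, 11.003, 11.09 and 10.76 in GKO-IMM, 10.87, 10.79 and 10.95 in NIMM, and 11.17 in the parent. The IMM lines lay above the NIMM lines without overlap, by 0.25 ± 0.11 (limma adjusted p = 0.341), and IMM 2 stood well above the other two. Gadd45b, a stress sensor, read 5.91, 6.48 and 5.97 in IMM, 6.02, 5.99 and 5.81 in GKO-IMM, 6.04, 6.09 and 5.94 in NIMM, and 6.35 in the parent. Zmat3, an RNA-binding zinc finger protein, read 8.52, 8.90 and 8.56 in IMM, 8.47, 8.53 and 8.49 in GKO-IMM, 8.52, 8.67 and 8.58 in NIMM, and 8.80 in the parent. In both genes IMM 2 was the highest of the 9 lines and the other IMM lines lay among the rest. Sesn1, a sestrin that restrains growth signalling, kept within 7.05 to 7.19 in IMM, 6.98 to 7.04 in GKO-IMM and 6.99 to 7.08 in NIMM lines, while the parent read 7.36, and its IMM and GKO-IMM lines did not overlap. IMM minus GKO-IMM was 0.11 ± 0.06 for Sesn1 (0.392) and 0.16 ± 0.09 for Zmat3 (0.421).

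IMM 2 was the highest of the 9 established lines in 5 of the 11 p53 targets (Cdkn1a, Ccng1, Gadd45b, Sesn1 and Zmat3), against 14.8% of all genes tested, and in Trp53 as well. It was above the mean of IMM 1 and IMM 8 in 9 of 11 targets, by a median of 0.22, against 51.4% of all genes. In the repair genes it was above that mean in 10 of 23. These are descriptions of 1 line with 1 array.

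Of the apoptotic targets Bax and Bbc3, neither passed. Bax, which opens the outer mitochondrial membrane, read 8.68, 8.85 and 8.80 in the IMM lines, 8.93, 8.94 and 8.83 in GKO-IMM, 8.88, 8.95 and 9.08 in NIMM, and 8.996 in the parent. It was lower in every IMM line than in any NIMM line, by -0.20 ± 0.07, with a limma adjusted p of 0.268. Against GKO-IMM lines the difference was -0.13 ± 0.07 (0.399), and the groups overlapped. Bbc3, which encodes the p53-induced trigger Puma, kept within 5.24 to 5.29 in IMM, 5.29 to 5.48 in GKO-IMM and 5.23 to 5.53 in NIMM lines, with 5.51 in the parent. Its differences were -0.11 ± 0.08 for IMM minus GKO-IMM (0.530) and -0.10 ± 0.08 for IMM minus NIMM (0.606).

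Of the targets that take part in repair, Polk differed most. Polk encodes DNA polymerase kappa, which copies past damaged bases, and read 7.57, 7.44 and 7.45 in the IMM lines, 7.33, 7.23 and 7.13 in GKO-IMM, 7.34, 7.30 and 7.35 in NIMM, and 7.37 in the parent. All 3 IMM lines were above every other line. IMM minus GKO-IMM was 0.25 ± 0.07 at a limma adjusted p of 0.0931, the smallest among the members in any comparison. IMM minus NIMM was 0.16 ± 0.07 (0.320), and IMM lines minus the mean of the other groups 0.21 ± 0.06 (0.130). Without NIMM 4 the first of these differences stayed at 0.25 ± 0.07 and passed, at an adjusted p of 0.0428. Xpc, the damage sensor of nucleotide excision repair, kept within 7.28 to 7.38 in IMM, 7.18 to 7.50 in GKO-IMM and 7.29 to 7.44 in NIMM lines, and its groups overlapped in each comparison.

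Among the damage kinases, Chek1, Chek2 and Atm did not overlap between the immunized groups, and NIMM 4 was the lowest line in Chek1 and Atm. Chek2, the kinase that relays the Atm signal, read 8.08, 7.99 and 7.99 in the IMM lines, 7.77, 7.88 and 7.71 in GKO-IMM, 8.02, 7.82 and 7.85 in NIMM, and 7.997 in the parent. IMM and GKO-IMM lines did not overlap, with a difference of 0.24 ± 0.07 and a limma adjusted p of 0.129. Atm read 8.33, 8.30 and 8.29 in IMM, 8.14, 8.10 and 8.14 in GKO-IMM, 8.35, 8.38 and 7.93 in NIMM, and 8.29 in the parent. IMM minus GKO-IMM was 0.18 ± 0.10 for Atm (0.387). GKO-IMM minus NIMM was -0.10 ± 0.10 (0.710), and without NIMM 4 Atm was lower in GKO-IMM lines by -0.24 ± 0.06, passing at 0.0342.

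Chek1, the kinase that guards replication forks, read 8.43, 8.32 and 8.27 in the IMM lines, 8.17, 8.21 and 8.21 in GKO-IMM, 8.26, 8.28 and 7.70 in NIMM, and 8.36 in the parent. NIMM 4 lay far below the other 9 arrays, which together spanned 8.17 to 8.43. IMM minus NIMM, 0.26 ± 0.13 (limma adjusted p = 0.388), drew on that 1 line. Atr kept within 7.26 to 7.41 in IMM, 7.34 to 7.51 in GKO-IMM and 7.24 to 7.32 in NIMM lines, and GKO-IMM minus NIMM was 0.13 ± 0.07 (0.396).

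Brca1, which directs breaks towards homologous recombination, had the widest range of the members. It read 9.26, 8.59 and 9.03 in the IMM lines, 8.49, 8.55 and 8.37 in GKO-IMM, 8.94, 8.91 and 8.34 in NIMM, and 8.78 in the parent. IMM 1 and IMM 8 were the highest of the 10 lines, while IMM 2 was close to the GKO-IMM lines. The group means were 8.96 ± 0.34 in IMM and 8.47 ± 0.09 in GKO-IMM lines (SD, n = 3 each), a difference of 0.49 ± 0.17 and a 1.40-fold ratio, with a limma adjusted p of 0.186. Without NIMM 4 the same difference had a standard error of 0.13 and passed at 0.0458.

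The remaining genes of break ends and recombination shifted less. Brca2, which loads the recombinase onto single strands, kept within 7.32 to 7.35 in IMM, 7.17 to 7.27 in GKO-IMM and 7.12 to 7.44 in NIMM lines. Mre11a, Rad50 and Nbn, the complex that first holds a broken end, differed between IMM and GKO-IMM lines by 0.21 ± 0.10, 0.09 ± 0.06 and 0.15 ± 0.07, and none passed (limma adjusted p of 0.326, 0.535 and 0.318). Rpa1, which coats single-stranded DNA, differed by 0.13 ± 0.09 (0.491) and the helicase gene Blm by 0.08 ± 0.14 (0.825). The array's H2afx, now H2ax, encodes the histone that is phosphorylated around breaks. It read 9.07, 9.22 and 9.22 in IMM and 9.02, 9.06 and 8.94 in NIMM lines, without overlap, and the difference was 0.16 ± 0.07 (0.346).

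Fancd2, the Fanconi anaemia protein that is ubiquitinated at cross-links, read 9.38, 9.37 and 9.48 in the IMM lines, 9.08, 9.12 and 9.14 in GKO-IMM, 9.29, 9.42 and 8.86 in NIMM, and 9.41 in the parent. The IMM lines, NIMM 1, NIMM 3 and the parent formed a band above the GKO-IMM lines, and NIMM 4 was lowest. IMM minus GKO-IMM was 0.30 ± 0.12 with a limma adjusted p of 0.216, and without NIMM 4 it was 0.30 ± 0.06 and passed at 0.0132. Msh6, which recognises mismatched bases, read 8.15, 8.11 and 7.99 in IMM, 7.99, 8.02 and 7.91 in GKO-IMM, 8.16, 8.10 and 7.62 in NIMM, and 8.01 in the parent. Again NIMM 4 was lowest, and IMM minus GKO-IMM was 0.11 ± 0.12 (0.690).

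The end joining genes differed in their spread, from Prkdc as the narrowest to Lig4 with a gap of 0.39 between its highest and lowest line. Xrcc6 and Xrcc5 encode the Ku subunits that cap broken ends. Xrcc6 read 7.83, 7.88 and 7.90 in the IMM lines, 7.64, 7.69 and 7.77 in GKO-IMM, 7.81, 7.77 and 7.69 in NIMM, and 7.92 in the parent. IMM lines were above both other groups without overlap, by 0.17 ± 0.06 against GKO-IMM lines (limma adjusted p = 0.186). Xrcc5 kept within 8.99 to 9.17 in IMM, 9.11 to 9.18 in GKO-IMM and 8.98 to 9.07 in NIMM lines, with GKO-IMM minus NIMM at 0.10 ± 0.06 (0.509). Its partner Prkdc, the DNA-dependent kinase, had the narrowest range of all members, from 7.11 to 7.25 over the 9 lines. Lig4, the ligase that seals the join, kept within 7.29 to 7.62 in IMM, 7.24 to 7.45 in GKO-IMM and 7.39 to 7.47 in NIMM lines.

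In excision repair and ligation the genes split. Parp1, which senses nicked DNA, read 9.26, 9.38 and 9.27 in the IMM lines, 9.04, 9.04 and 9.08 in GKO-IMM, 9.42, 9.23 and 9.05 in NIMM, and 9.36 in the parent. The GKO-IMM lines and NIMM 4 were low together. IMM minus GKO-IMM was 0.25 ± 0.09 (limma adjusted p = 0.162) and GKO-IMM minus NIMM -0.18 ± 0.09 (0.373). Without NIMM 4 both passed, at 0.25 ± 0.07 (0.0394) and -0.27 ± 0.07 (0.0444).

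Lig1, which joins the fragments of the lagging strand, read 8.37, 8.32 and 8.33 in the IMM lines, 8.24, 8.33 and 8.31 in GKO-IMM, 8.47, 8.61 and 7.94 in NIMM, and 8.36 in the parent. NIMM 4 and NIMM 3 were the lowest and the highest of all lines. GKO-IMM minus NIMM was -0.05 ± 0.13 (limma adjusted p = 0.904), and without NIMM 4 Lig1 was lower in GKO-IMM lines by -0.25 ± 0.07 (0.0445).

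Xrcc1, the scaffold of single-strand break repair, read 7.55, 7.66 and 7.62 in the IMM lines, 7.73, 7.84 and 7.77 in GKO-IMM, 7.76, 7.75 and 7.73 in NIMM, and 7.72 in the parent. Every IMM line was below all other lines, by -0.17 ± 0.06 against GKO-IMM (limma adjusted p = 0.169) and -0.14 ± 0.06 against NIMM (0.322). Ercc2, a helicase of the factor that opens damaged DNA, read 7.56, 7.86 and 7.87 in IMM, 7.86, 7.97 and 8.05 in GKO-IMM, 7.92, 8.14 and 7.97 in NIMM, and 7.95 in the parent. The IMM lines were below the NIMM lines without overlap, by -0.25 ± 0.10 (0.292). Ercc1, part of the nuclease that cuts beside the damage, kept within 6.58 to 6.83 in IMM, 6.69 to 6.78 in GKO-IMM and 6.52 to 6.83 in NIMM lines.

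**Figure D3:**
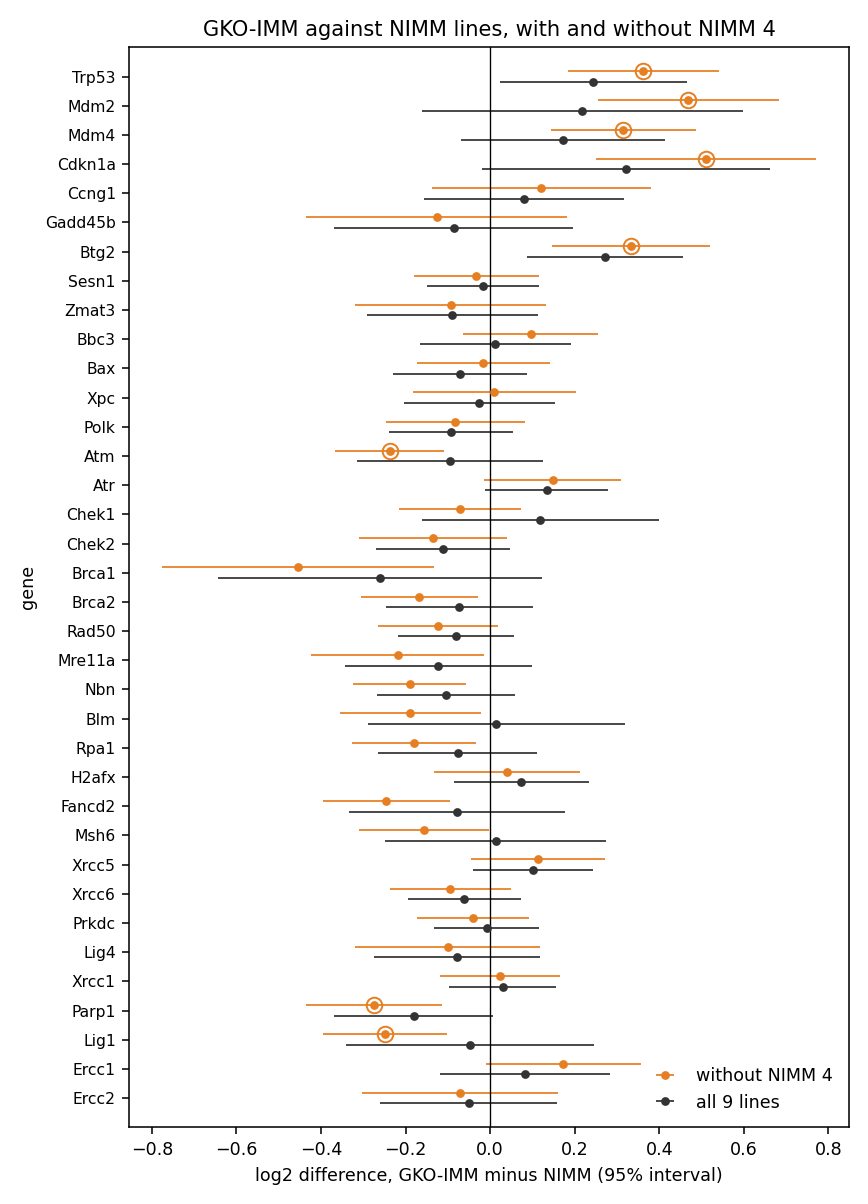
Log2 difference of each member, GKO-IMM minus NIMM lines, with its 95% interval; black is the fit of all 9 lines (0 of 36 passed) and orange the fit without NIMM 4, where rings mark the 8 genes that passed. The ringed genes are Trp53, Mdm2, Mdm4, Cdkn1a and Btg2 above zero and Atm, Parp1 and Lig1 below it.

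Set against each other, p53 targets and repair genes differed little by group. In IMM minus NIMM the median difference was 0.09 for the 11 targets and 0.07 for the 23 repair genes, against 0.02 for all genes. In IMM minus GKO-IMM it was -0.01 for the targets and 0.10 for the repair genes, against 0.01, and the targets' value ran from -0.06 (without GKO-IMM 3) to 0.07 (without GKO-IMM 1) over the 21 alternatives, on both sides of zero. In GKO-IMM minus NIMM it was -0.02 and -0.06, against 0.01. These are medians of small shifts and carry no test, and the 3 comparisons share lines. The median in IMM minus NIMM turned to -0.01 for targets without IMM 2, and to -0.02 for repair genes without NIMM 4. Without NIMM 4 the GKO-IMM minus NIMM median was 0.01 for targets and -0.14 for repair genes, and 3 repair genes passed as lower (3.5% of all genes).

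The repair genes ordered the lines more evenly than the targets did. In IMM against GKO-IMM lines 12 of 23 repair genes were higher in every IMM line, against 13.3% of all genes, and 1 was lower (12.5%). Of the 11 targets, 2 were higher without overlap and 0 lower. The 12 genes were Atm, Chek1, Chek2, Brca1, Brca2, Mre11a, Nbn, Rpa1, Fancd2, Xrcc6, Prkdc and Parp1, and the 1 lower gene was Xrcc1. Of 30 cell cycle genes, 25 were higher in the same way, with a median difference of 0.25. The part of cell division in the repair genes' values was not tested.

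By line, the median deviation of repair genes from their 10-line medians was 0.04, 0.01 and 0.02 in IMM 1, 2 and 8, -0.07, -0.05 and -0.06 in GKO-IMM 1, 2 and 3, 0.04, 0.09 and -0.17 in NIMM 1, 3 and 4, and 0.05 in the parent. The GKO-IMM lines and NIMM 4 were the only lines below zero. For the targets the same values were -0.07, 0.13 and -0.03 in IMM, 0.03, -0.0041 and -0.07 in GKO-IMM, -0.07, -0.04 and 0.04 in NIMM, and 0.13 in the parent. IMM 2 and the parent were highest, and each of the 3 groups had lines on both sides of zero. The target median minus the repair median was highest in NIMM 4, at 0.21, and lowest in NIMM 3, at -0.13.

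**Figure D4:**
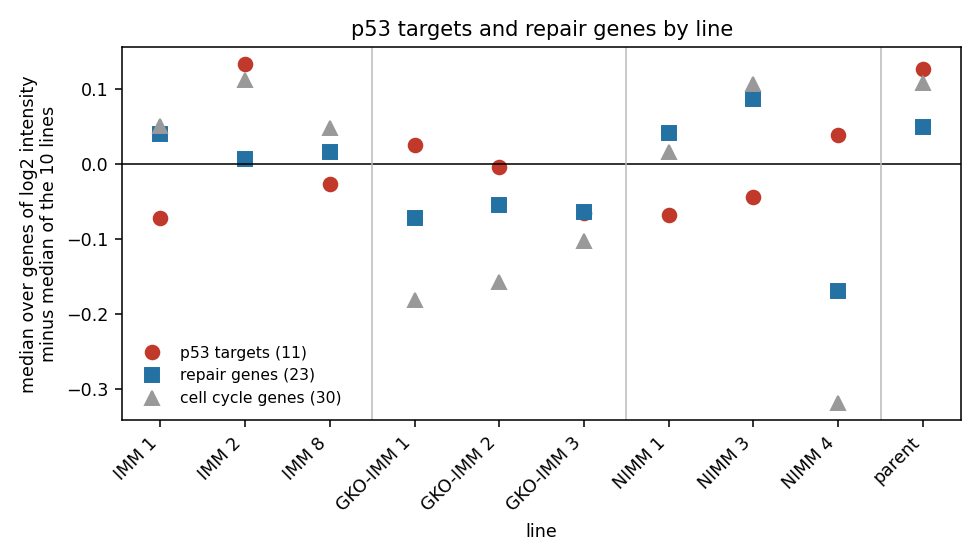
Median over genes of the log2 intensity minus the gene's 10-line median, for each line; circles are 11 p53 targets, squares 23 repair genes and triangles 30 cell cycle genes. Squares and triangles lie below zero in the GKO-IMM lines and in NIMM 4, and circles are highest in IMM 2 (0.13) and the parent (0.13).

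NIMM 4 separated the sets within 1 group. It was the lowest of the 9 established lines in 12 of 23 repair genes, against 16.3% of all genes, and in 0 of 11 targets. Against the mean of NIMM 1 and NIMM 3 it was lower in 20 of 23 repair genes, by a median of -0.26, where 50.8% of all genes were lower. In 8 of the 11 targets it was higher, by a median of 0.12 over the 11. The 30 cell cycle genes were all lower there, with a median of -0.44, and NIMM 4 was the lowest line in 25 of them. In bulk RNA of a culture, fewer dividing cells and less of these transcripts per cell cannot be told apart.

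Chromosome 7 holds 7 members: Lig1 (chr7:13277175-13311426, build GRCm38), Bbc3, Ercc1, Ercc2, Xrcc1, Bax (chr7:45461695-45466903) and Blm. The chromosome was looked at because earlier results of these data had shown low chromosome 7 genes in IMM lines. The median of IMM lines minus the mean of the other groups was -0.11 for these 7 and 0.10 for the 29 members elsewhere, against -0.03 for all 1309 genes tested on chromosome 7 and 0.01 for all genes. In IMM minus NIMM it was -0.10 for the 7 and 0.09 for the 29. Without NIMM 4 the IMM minus NIMM median was -0.14 for the 7 and 0.05 for the 29. The median of IMM lines minus the mean of the other groups was then -0.08 and 0.09. Bax, Ercc2 and Xrcc1 were lower in every IMM line than in every NIMM line, 3 of 7 against 239 of the 1309 genes tested on chromosome 7 and 7.25% of all genes. Blm (0.09 ± 0.12) and Lig1 (0.02 ± 0.12) were the members of the 7 above zero in IMM minus the mean of the others. By limma 0 of the 7 passed, and 3 were at an unadjusted p under 0.05, against 367 of the 1309 and 16.4% of all genes. Of all genes on the chromosome 43 fell and 1 rose in that contrast, where 0.501% of all genes fell and 0.306% rose.

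**Figure D5:**
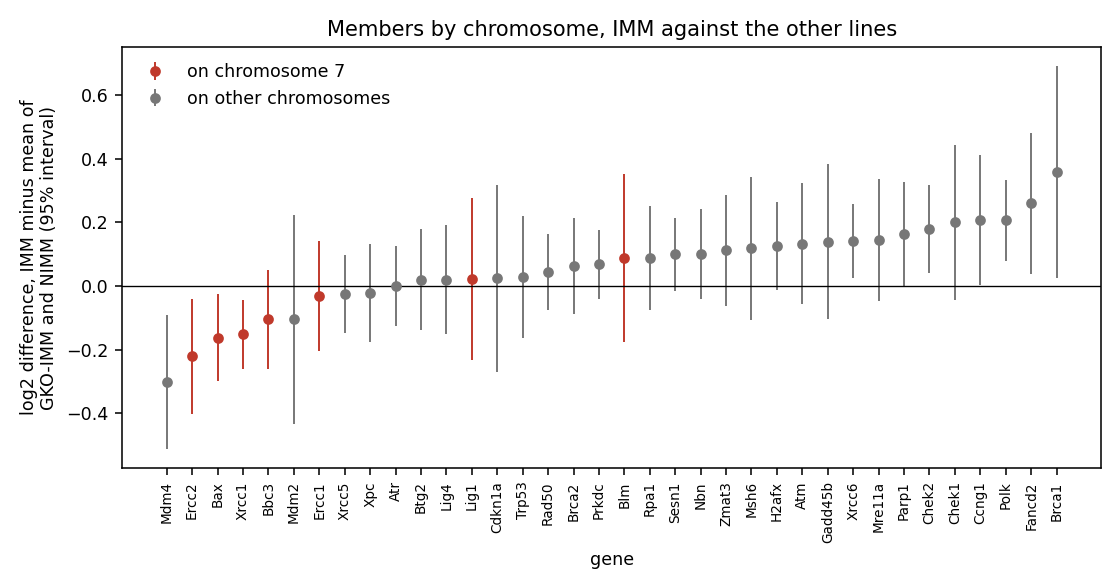
Log2 difference of each member, IMM minus the mean of GKO-IMM and NIMM lines, with its 95% interval, ordered by size; red marks the 7 members on chromosome 7. Of the 7, 5 lie below zero, among them Ercc2, Bax and Xrcc1.

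The parent line was close to the lines derived from it. It was above all 9 in 6 of 36 members, against 12.4% of all genes, and below all 9 in 0, against 13.5%. It was 1 log2 unit or more outside the 9 lines in 0 of 36, against 0.055% of all genes. The gap was widest for Brca2, at 0.21, where the parent read 7.65 and the others at most 7.44, and for Sesn1, at 0.17. The others were Mre11a, Rpa1, Xrcc5 and Xrcc6. With 1 parent array these are values without a test.

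Genes of the same pathways outside the 39 were counted by limma and by line. Of 30 other p53 targets tested, 0 passed in any comparison by limma, and at an unadjusted p under 0.05 the counts were 7 in IMM minus NIMM, 11 in IMM minus GKO-IMM and 3 in GKO-IMM minus NIMM, where 14.1%, 17.2% and 13.9% of all genes were under it. Without NIMM 4, 1 of the 30 passed in IMM minus NIMM (0.465% of all genes), 5 in IMM minus GKO-IMM (7.39%) and 4 in GKO-IMM minus NIMM (7.73%). IMM 2 was the highest of the 9 lines in 7 of the 30 (14.8% of all genes). It was above the mean of IMM 1 and IMM 8 in 18 (51.4%), with a median of 0.04, less than in the 11 member targets. Sesn2, a sestrin that both p53 and amino acid stress switch on, read 7.33, 7.58 and 7.37 in IMM, 8.57, 8.69 and 8.64 in GKO-IMM, 6.96, 6.95 and 8.78 in NIMM, and 7.25 in the parent. NIMM 4 and the GKO-IMM lines were about 1 log2 unit above all others. GKO-IMM minus NIMM was 1.07 ± 0.37 (limma adjusted p = 0.248), and 1.67 ± 0.08 without NIMM 4, where it passed (1.86e-06). Plk3, a stress kinase, differed by -0.67 ± 0.21 in IMM minus GKO-IMM lines (0.131). Apaf1, the scaffold of the apoptosome, was nearest to the threshold on the higher side, at 0.33 ± 0.08 in IMM minus GKO-IMM lines (0.0834) and 0.26 ± 0.08 in IMM minus NIMM lines (0.225).

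Of 88 other repair genes tested, 0 passed in IMM minus NIMM, IMM minus GKO-IMM or GKO-IMM minus NIMM by limma, with 11, 15 and 11 at an unadjusted p under 0.05, against 14.1%, 17.2% and 13.9% of all genes. Uimc1, which guides Brca1 to ubiquitin at breaks, was 0.26 ± 0.06 higher in IMM than in GKO-IMM lines (0.0684), and Xrcc4, the partner of Lig4, 0.35 ± 0.08 (0.077). Without NIMM 4, 9 of the 88 passed as higher in IMM than in GKO-IMM lines (3.28% of all genes) and 2 as lower (4.11%). In GKO-IMM against NIMM lines 1 then passed as higher (4.23%) and 8 as lower (3.5%).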

How the data were processed

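Total RNA of 10 lines was hybridised to 1 Affymetrix MoGene-2_0-st array each, after Trizol extraction and biotin labelling per the labels' protocols. Per the file headers, the deposited raw columns hold intensity values per transcript cluster; they already lay on nearly 1 distribution, so a scaling between arrays had been applied. The deposited normalized columns hold log2 values, which equal log2 intensity minus each cluster's median over the 10 arrays (largest difference 2.23e-06). Which software, background correction and summarization made them is not stated in the labels or headers.

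Log2 of the intensity columns was analysed without further normalization. Of 33793 clusters, 24732 carried 1 symbol; symbols were updated with a RefSeq gene table (GRCm38). Genes under percentile 30 of the mean over the 9 established lines (log2 4.74, intensity 26.7) were left out. Those 9 lines, in 3 groups of 3, were fitted by lmFit and eBayes of limma 3.58.1 under R 4.3.3 (neither trend nor robust), with 6 residual and 5.25 prior degrees of freedom, and tested on simulated data first. Python 3.11.15, numpy 2.4.6, pandas 2.3.3 and matplotlib 3.10.9 did the rest. The parent, with 1 array, had no test. The number of arrays limits the precision.

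The genes and lists were chosen with earlier results of these data known. Genes were named if they passed, otherwise by the 4 smallest p-values among targets and among repair genes in each contrast, with Trp53, Mdm2 and Cdkn1a always, and the 2 smallest in each direction of the other lists. A few results on the other repair genes are not reported here. Chromosome 7 and the breakdowns by IMM 2 and by NIMM 4 were chosen with values known. The alternatives were quantile normalization, centring, filters, the choice of cluster, priors, array weights, only the groups compared, a replicate block, 15 subtracted from or 48 added to intensities, and each line left out.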

Additional observations from a re-analysis of the deposited data

How the results depend on the processing

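With all 9 lines 0 members passed in any comparison, and 21 alternatives left 0 in IMM minus NIMM and 20 left 0 in IMM minus the mean of the others. In IMM minus GKO-IMM, 4 of 36 members passed with array weights (Brca1, Fancd2, Mdm4 and Polk), against 1037 of the 16352 genes tested. When only the groups compared were fitted, 3 passed (Fancd2, Mdm4 and Parp1), against 976 of all genes. With each line left out 0 to 5 passed, against 30 to 1208. In GKO-IMM minus NIMM, 3 members passed with array weights (Btg2, Cdkn1a and Trp53), against 1217 of all genes. With each line left out it was 0 to 8, against 6 to 1264. In the test among the 3 groups, 3 members passed with array weights, against 1431 of all genes, and 0 to 7 with each line left out, against 32 to 1442. Each upper end is the fit without NIMM 4. Leaving out any other line gave 0 members. The line numbers do not pair the lines: deviations of same-numbered lines correlated between -0.13 and 0.12. With the line number as a replicate block, 2 members passed in GKO-IMM minus NIMM (Cdkn1a and Mdm2), against 915 of all genes. Line numbers 4 and 8 each belong to 1 line, so the block also takes NIMM 4 and IMM 8 out of the contrasts. It is therefore not separate from the fit without NIMM 4. Among the 3 groups 1 passed (Mdm4), against 927. The median of repair genes in IMM minus GKO-IMM was then 0.12.

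The median of p53 targets in IMM minus NIMM, 0.09, was -0.0081 without IMM 2 and at most 0.124 over 21 alternatives. The median of repair genes in IMM minus GKO-IMM, 0.0989, moved by more than the spread between lines under quantile normalization (0.111), centred array medians (0.084), array weights (0.109), 15 subtracted (0.110) or 48 added (0.083), and was 0.091 to 0.116 with each line left out. The cause was not tested. The counts over all genes moved more: the 9-line counts were 70 for IMM against NIMM lines, 191 for IMM against GKO-IMM lines, 20 for GKO-IMM against NIMM lines, 132 for IMM lines against the mean and 167 for any difference, and in that order they went to 167, 1037, 1217, 265 and 1431 with array weights, 33, 91, 9, 82 and 101 with no filter, and 29, 586, 915, 88 and 927 with the block. The first 3 were 13, 976 and 17 with only the groups compared. With 48 added 33 passed in IMM minus NIMM, 5 in GKO-IMM minus NIMM and 101 in any difference. With 15 subtracted 90 passed in IMM minus GKO-IMM, 52 in IMM minus the mean and 98 in any difference. The stricter filter left 7 in GKO-IMM minus NIMM and 45 in IMM minus NIMM. With each line left out the ranges were 21 to 76, 30 to 1208, 6 to 1264, 39 to 304 and 32 to 1442, and each upper end was the fit without NIMM 4. With centred medians the calls split into 16 higher and 79 lower in IMM minus NIMM, against 19 and 51, and into 3 and 14 in GKO-IMM minus NIMM, against 6 and 14. For the 23 named members, 1882 of 1909 single values kept direction and side of the threshold, 19 came to pass and 8 moved. Adding 48 lowers any log ratio of a dim gene by construction.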

Other observations

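Among other p53 targets, Ei24 was higher in IMM than in NIMM lines by 0.22 ± 0.06 (log2 difference ± SE; limma adjusted p = 0.174), while Fdxr was lower by -0.16 ± 0.07 (0.320) and Perp by -0.14 ± 0.08 (0.451). None passed. In IMM minus GKO-IMM lines Ckap2, a spindle protein gene, was at 0.44 ± 0.11 (0.0851), and it passed without NIMM 4. Cop1, which encodes another ubiquitin ligase of p53, was at 0.18 ± 0.07 in GKO-IMM minus NIMM lines (0.313), and the death receptor gene Tnfrsf10b at -0.15 ± 0.07 (0.387). Ccnd1, cyclin D1, was at -0.13 ± 0.06 in IMM minus the mean of the others (0.302).

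Among other repair genes, Mgmt, which removes alkyl groups from guanine, was at 0.19 ± 0.06 in IMM minus NIMM lines (limma adjusted p = 0.244), and Hus1, part of the checkpoint clamp, at 0.17 ± 0.06 (0.278). Ercc6, which serves transcription-coupled repair, was at -0.31 ± 0.09 in IMM minus GKO-IMM (0.116) and 0.28 ± 0.09 in GKO-IMM minus NIMM lines (0.218). Rad51b was at 0.28 ± 0.08 in GKO-IMM minus NIMM (0.181), and the resolvase gene Gen1 at 0.32 ± 0.11 in IMM minus the mean of the others (0.2001). Without NIMM 4, Ercc6 and Gen1 passed in both IMM minus GKO-IMM and GKO-IMM minus NIMM lines, with Ercc6 highest in GKO-IMM and Gen1 lowest there.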
